A study of Danio rerio with 10 samples.

Results

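The earliest transcript differences between zebrafish earl grey (egy) mutants and their siblings were measured 3 days after fertilization, in 2 pools of whole mutant embryos and 2 pools of whole sibling embryos. These 4 arrays were taken from the 10 of the series by their titles, which name the genotype class and the day, and every probe set that is not an array control was used. All pools came from matings of egy heterozygotes in an AB/WIK background with the cz3 allele, and embryos were sorted by their looks. Because the defect is recessive, the sibling pools (called wt in the titles) may hold heterozygotes as well as homozygous wild-type embryos. A pool mixes many embryos, so the spread between 2 pools is not the spread between embryos. The other 6 arrays, 3 mutant and 3 sibling pools of day 5, serve here to show which day 3 differences had already reached the size they had later.

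The gene defective in egy is the orthologue of human p110, known in zebrafish as sart3. The protein helps the U4 and U6 small nuclear RNAs to pair again after each round of splicing, so that the spliceosome can be used anew. The spliceosome is built from Sm and LSm protein rings around small nuclear RNAs, from the U1, U2 and U4/U6.U5 particles, and from the PRP19 complex that accompanies the catalytic steps. Per the series text the mutants later have small heads and eyes, poorly formed pharyngeal arches and a small thymus.

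Some labels conflict. The strain label of sibling replicate 2 of day 3 calls it mutant, although its title says wt, and every description says wt. On the array this pool correlated at 0.983 (Spearman) with the other sibling pool and at 0.970 and 0.954 with mutant replicates 1 and 2. The mutant pools correlated at 0.971 with each other, so mutant replicate 1 was about as close to sibling replicate 2 as to the other mutant pool. Counting that sibling pool as a mutant left 0 calls by limma, with 568 probe sets at an unadjusted p under 0.05. The series text speaks of days 3 and 4, and the titles and age labels of days 3 and 5, which are used here. Median signals of the 4 arrays were 638 and 637 in mutants, against 671 and 669 in siblings. The defining markers on the array of each larval tissue were above the filter limit in all day 3 sibling pools for eye, brain, lens, cartilage, exocrine pancreas, islet, liver, intestine, muscle, heart, blood, myeloid cells, skin and melanophores. The lymphoid marker rag1 stayed below the limit in the mean over all arrays and was not tested.

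sart3 itself had a signal of 462 and 648 in the mutant pools, against 2526 and 2517 in the sibling pools. Both mutant pools lay far below both sibling pools, and the log2 difference was -2.08 ± 0.56 (SE). It missed the threshold in the limma fit over all 10 arrays (adjusted p = 0.083), and it passed on day 5 (-2.82, adjusted p = 0.0013). With the day 3 pools fitted alone the same day 3 difference had an adjusted p of 6.3e-04, and over all alternatives that kept the titles' grouping the adjusted p lay between 9.1e-05 and 0.38. Where the probes lie relative to the cz3 change is not given in the sources used here.

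Of 11626 probe sets tested, 238 (2.05%) passed an adjusted p of 0.05 on day 3: 137 (1.18%) were higher and 101 (0.869%) lower in mutants. Over 2-fold were 81 of the higher and 45 of the lower ones. The calls cover 105 named genes that rose (1.44%) and 67 that fell (0.92%), of 7280 genes tested. The mutant and sibling pools did not overlap for any of the 238, but pools did not overlap for 21% (higher) and 28.1% (lower) of all probe sets either. Of the 15 largest rises 13 were genes of the spliceosome or of its small nuclear RNAs, and of the 15 largest falls 10 were photoreceptor or exocrine pancreas genes. The median over all probe sets was -0.03. With each array centred on its median the split was 155 higher and 67 lower (69.8% higher, against 57.6% with the deposited scaling).

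The count rests on few pools. Without sibling replicate 1 of day 3 it was 48, without mutant replicate 2 it was 68 and without sibling replicate 2 it was 82. Without mutant replicate 3 of day 5, which takes part only in the filter and in the estimate of the spread, it was 400. A call in all 4 fits that leave out a day 3 pool was kept by 43 probe sets, 42 higher and 1 lower. These included 35 named genes, all higher in mutants, of which 20 are on the 4 spliceosome lists. No named gene that fell kept its call in all 4. All 238 probe sets kept their direction in these 4 fits. That was fixed in advance, because their mutant and sibling pools do not overlap.

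**Figure D1:**
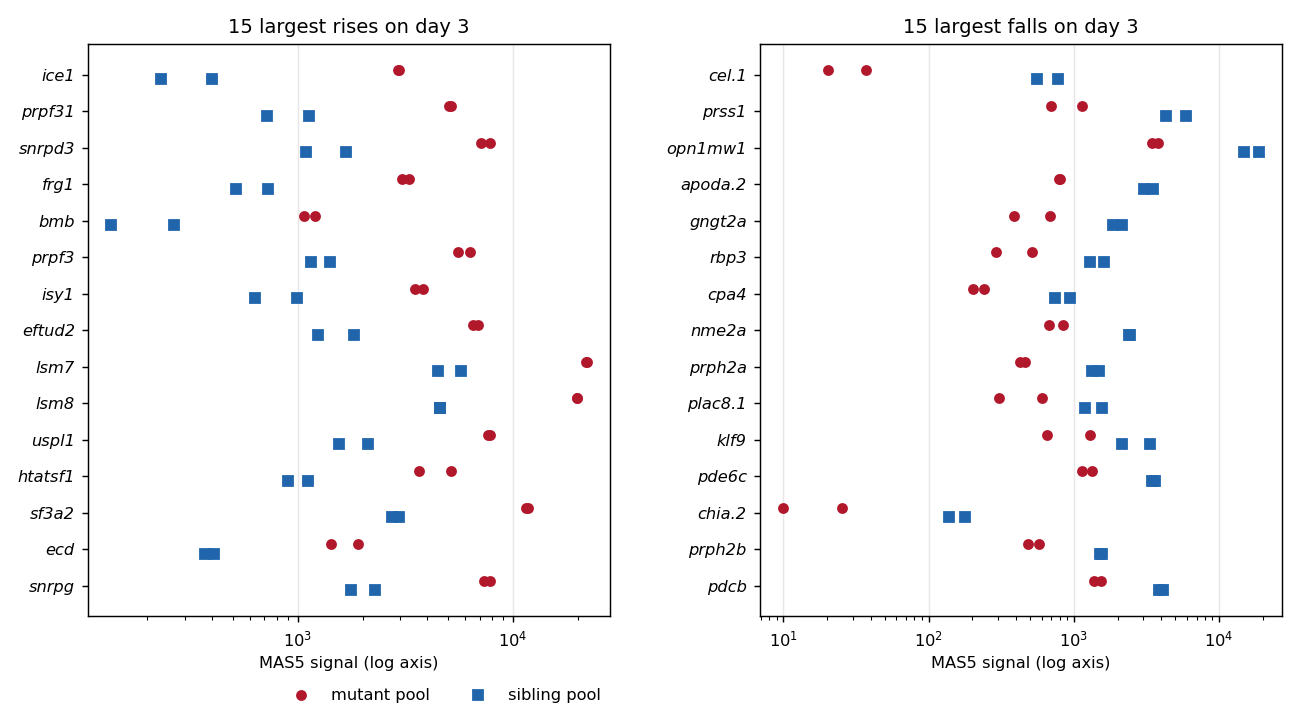
MAS5 signal (log axis) of the 15 genes with the largest rise and the 15 with the largest fall on day 3, with a point for each of the 2 mutant pools and 2 sibling pools. For ice1 the mutant pools stand at 2931 and 2965, against 232 and 400 in the sibling pools. Genes were picked only if the pools of the 2 groups did not overlap, so none of the 30 shows an overlap.

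The largest rise was in ice1, which encodes a subunit of the little elongation complex that helps transcribe small nuclear RNA genes. Its signal was 2931 and 2965 in mutants, against 232 and 400 in siblings (log2 difference 3.02 ± 0.35, adjusted p = 5.4e-04). uspl1, which encodes a Cajal body protein, had 7861 and 7653 in mutants, against 1555 and 2112 in siblings (2.06 ± 0.22). Cajal bodies are the nuclear sites where small nuclear RNPs mature. Of the 43 tested genes of small nuclear RNA transcription and RNP biogenesis, 5 rose and 0 fell, beside 1.44% and 0.92% over all genes. The median was 0.08, against -0.02 over all genes. The others include ssb, the La protein that binds the ends of new RNA polymerase III transcripts (10579 and 8803 in mutants, 2585 and 3338 in siblings; 1.69 ± 0.18), and snapc4, a subunit of the complex that activates snRNA promoters. For snapc4 the signal was 566 and 585 in mutants, against 176 and 133 in siblings (1.55 ± 0.26). Both sibling values lie below the filter limit of 223, so the size of that rise is uncertain.

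Proteins of the Sm ring sit on most spliceosomal small nuclear RNAs, and LSm proteins form the ring on U6. Of their 15 genes tested, 10 rose (1.44% of all genes did) and 0 fell, with a median of 1.12. snrpd3 (Sm D3) had 7804 and 7109 in mutants, against 1097 and 1675 in siblings (2.4 ± 0.27, adjusted p = 4.4e-04). lsm8, the subunit that sets the nuclear LSm ring apart from the cytoplasmic one, had 19871 and 19860 in mutants, against 4577 and 4607 in siblings (2.1 ± 0.17, adjusted p = 5.7e-05). The 2 pools of each group nearly coincided for lsm8. lsm7 rose by a like amount (22041 and 21799 in mutants, 4469 and 5745 in siblings; 2.1 ± 0.26), as did snrpg and snrpe, with log2 differences of 1.88 and 1.86. lsm1, which marks the cytoplasmic ring that acts in mRNA decay, did not pass (0.55, adjusted p = 0.24). The list's median was 1.14 in mutant replicate 1 and 1.1 in mutant replicate 2, each relative to the mean of the sibling pools. Without sibling replicate 1 or mutant replicate 2 of day 3, 6 of the genes still passed.

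The U4/U6.U5 tri-snRNP, the particle that p110 helps to restore, had 10 of 23 genes higher and 0 lower (median 0.41). The share higher over all genes was 1.44%. prpf31, which holds U4/U6 to U5, had 5058 and 5174 in mutants, against 719 and 1126 in siblings (2.42 ± 0.18, adjusted p = 5.7e-05). prpf3, a U4/U6 protein, had 6338 and 5534 in mutants, against 1148 and 1407 in siblings (2.16 ± 0.26). Its partner prpf4 had 6338 and 5878 in mutants, against 1758 and 1625 in siblings (1.81 ± 0.18). In these genes every mutant pool was well above every sibling pool. The U5 GTPase gene eftud2 rose (6894 and 6516 in mutants, 1246 and 1817 in siblings; 2.11 ± 0.18), as did sart1, which joins the tri-snRNP to the spliceosome (6367 and 7150 in mutants, 1847 and 2188 in siblings; 1.71 ± 0.19). prpf8, the large U5 protein at the catalytic centre, rose less (0.88, adjusted p = 0.0026). The members that did not pass include snrnp40 (0.37) and txnl4a (0.27), both U5 proteins.

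For the U1 and U2 particles 11 of 30 genes rose (1.44% of all genes did) and 0 fell (median 0.42). sf3a2, a U2 subunit that binds near the branch site, had 11515 and 11736 in mutants, against 2737 and 2951 in siblings (2.01 ± 0.19, adjusted p = 1.6e-04). The other sf3a2 probe set rose less (1.26) and was also called. htatsf1, a U2-associated factor, had 3651 and 5172 in mutants, against 901 and 1116 in siblings (2.05 ± 0.25). sf3a3 and sf3b4 followed with 1.47 ± 0.19 and 1.37 ± 0.19. In the PRP19 list 9 of 46 genes rose and 0 fell (median 0.27), led by isy1, a protein of the catalytic spliceosome (3507 and 3828 in mutants, 631 and 988 in siblings; 2.12 ± 0.36). crnkl1 and xab2, both parts of the same core, had log2 differences of 1.26 ± 0.22 and 1.25 ± 0.23. Without sibling replicate 1 of day 3 only 1 gene of this list passed, without mutant replicate 2 there were 2 and without sibling replicate 2 there were 3. Without sibling replicate 2 the U1 and U2 list had 6, and 7 without sibling replicate 1 or mutant replicate 2.

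Over the 4 lists together 40 of 114 genes rose (1.44% of all genes did) and 0 fell, and 101 had a positive difference. These lists were written with earlier results of the same arrays known, so the direction is a description. Without sibling replicate 1 of day 3, 21 rose, and without mutant replicate 2, 24. The splicing regulators that are not core components moved differently in size: of 62 SR and hnRNP genes 5 rose and 1 fell, with a median of 0.03. The largest of these was srsf11 (16676 and 15920 in mutants, 9732 and 10376 in siblings; 0.69 ± 0.14). rbmx, an hnRNP gene, was lower in both mutant pools (2734 and 2583, against 3947 and 3717 in siblings, -0.52 ± 0.11). This single fall among 62 genes is near the share over all genes (0.92%). Without 1 of the day 3 pools, between 0 and 2 genes of that list rose and 0 fell.

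**Figure D2:**
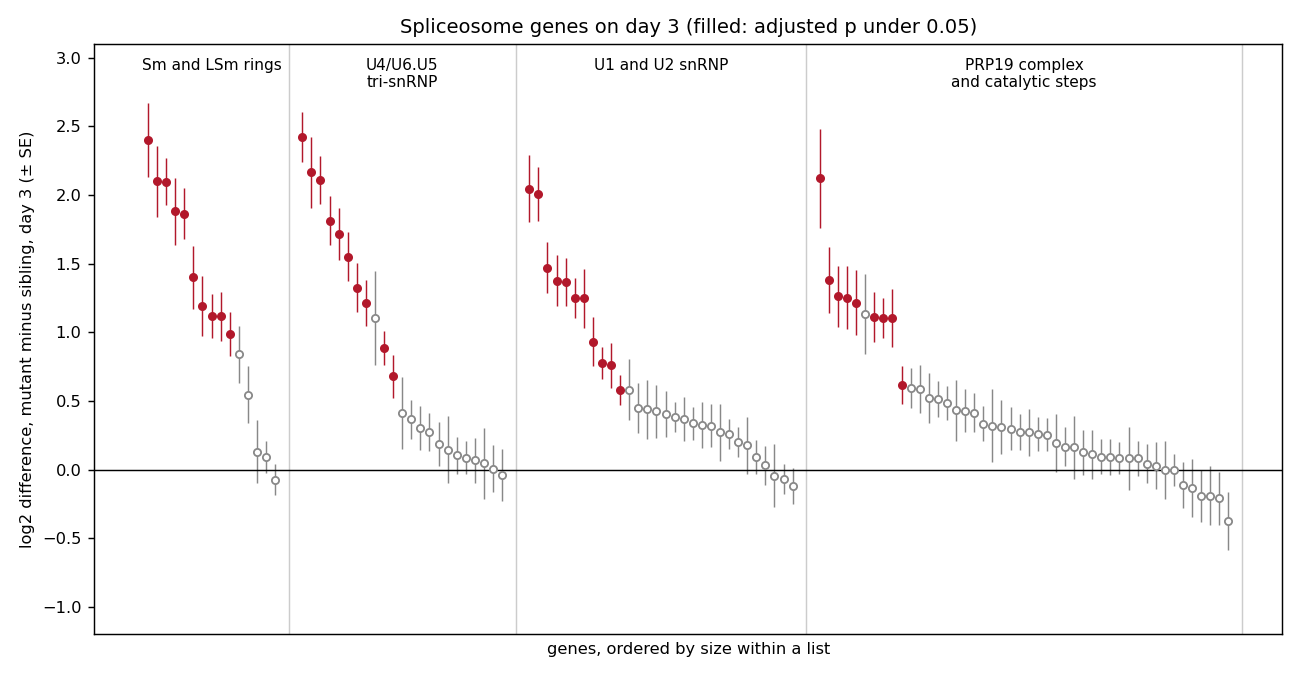
Log2 difference on day 3, mutant minus sibling, with its SE, for the 114 tested genes of the 4 spliceosome lists in order of size within a list. Filled points passed the adjusted p threshold: 10 of 15, 10 of 23, 11 of 30 and 9 of 46 genes from left to right, all above 0.

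Among the 49 genes tested that p53 controls or that act in cell death, 8 rose and 0 fell, with a median of 0.04. Over all genes 1.44% rose and 0.92% fell. p53 is a transcription factor that halts division or starts cell death under stress. mdm2, its ubiquitin ligase and feedback target, had 4299 and 3885 in mutants, against 1040 and 1227 in siblings (1.80 ± 0.15, adjusted p = 5.7e-05). rps27l, a ribosomal protein paralogue that p53 induces in human cells, had 9550 and 7185 in mutants, against 2425 and 2638 in siblings (1.69 ± 0.15). Both lie in the p53 circuit and rose in every mutant pool. phlda3, an inhibitor of Akt signalling, rose by 1.28 ± 0.16, and bbc3, the cell-death activator puma, by 1.12 ± 0.18. ccng1 had 30375 and 25591 in mutants, against 13721 and 15344 in siblings (0.94 ± 0.11). The rest of the list was spread around 0, with casp8 at 0.99 (adjusted p = 0.099) and mdm4 at -0.63 (adjusted p = 0.051). With 1 pool left out, 4 rose without day 3 sibling replicate 1 and 5 without any other day 3 pool or any day 5 sibling pool. The median turned to -0.03 without mutant replicate 1 and to -0.02 without sibling replicate 1.

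Photoreceptor genes were the widest group of falls. Of 35 tested, 0 rose and 9 fell (0.92% of all genes did), with a median of -1.11. In pools of whole embryos, fewer cells of a type and less RNA per cell cannot be told apart. opn1mw1, a green-cone opsin, had 3830 and 3429 in mutants, against 18748 and 14757 in siblings (-2.18 ± 0.51, adjusted p = 0.049). gngt2a, a cone transducin subunit, had 691 and 385 in mutants, against 2147 and 1865 in siblings (-1.83 ± 0.30, adjusted p = 0.0069). rbp3, the retinoid-binding protein between retina and pigment epithelium, had 519 and 293 in mutants, against 1603 and 1298 in siblings (-1.72 ± 0.29). The mutant pools were below the sibling pools in all these genes. Members of the cone cascade also fell: pde6c, the cone phosphodiesterase (1345 and 1147 in mutants, 3602 and 3455 in siblings; -1.46 ± 0.29), and the outer segment disc genes prph2a (-1.55 ± 0.33) and prph2b (-1.43 ± 0.31). The other prph2b probe set had -2.02 and was also called. crx, a transcription factor that drives photoreceptor genes, did not pass (-0.37, adjusted p = 0.41), nor did nr2e3, a rod factor (-0.18). With 1 day 3 pool left out, 3 fell without mutant replicate 1 or sibling replicate 2, 1 without mutant replicate 2 and 0 without sibling replicate 1. Without any 1 of the day 5 sibling pools 5 fell, without mutant replicate 1 or 3 of day 5 there were 21 or 20, and with the day 3 pools fitted alone 21. The median stayed between -1.2 and -1.01 when a day 3 pool was left out.

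Exocrine pancreas genes had the deepest median, -1.63 over 16 genes. Of these 3 fell and 0 rose, beside 0.92% and 1.44% over all genes. prss1, a trypsin, had 1146 and 696 in mutants, against 5970 and 4299 in siblings (-2.42 ± 0.51, adjusted p = 0.031). cel.1, a bile salt lipase, had 37.1 and 20.2 in mutants, against 773 and 561 in siblings (-2.96 ± 0.63). cpa4, a carboxypeptidase, had 241 and 204 in mutants, against 941 and 742 in siblings (-1.65 ± 0.28). The other cpa4 probe set differed by -2.93 and was also called. For cel.1 and cpa4 the mutant means lie below the filter limit, so the size of the fall is uncertain. cel.1 passed the filter through its high sibling signals, which on day 5 were 1551 to 2668. It was tested in 19 of the 21 alternatives only. ctrb.1, a chymotrypsinogen, had the most extreme difference of the list, with 381 and 245 in mutants, against 5001 and 3692 in siblings, but missed the threshold (-3.55, adjusted p = 0.065). ptf1a, the transcription factor of the exocrine lineage, had a difference of -0.42 (adjusted p = 0.47). Leaving out a day 3 pool left 0 or 1 of the 3 calls, as did leaving out sibling replicate 1 of day 5 (1), whereas without mutant replicate 2 or 3 of day 5 there were 10 or 11.

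Other tissues showed few calls, beside 1.44% higher and 0.92% lower over all genes. Of 62 genes of neurons and glia 5 fell and 0 rose (median -0.27): syt5a, a synaptotagmin of synaptic vesicles (656 and 425 in mutants, 1441 and 1164 in siblings; -1.19 ± 0.23), pvalb6, mbpa, gad1b and snap25b. Median centring reduced these 5 to 2, and between 0 and 1 were left without sibling replicate 1, sibling replicate 2 or mutant replicate 2 of day 3. Without sibling replicate 2 or 3 of day 5 there were 2 or 3, and without mutant replicate 3 of day 5 there were 8. elavl3, a general marker of neurons, had a log2 difference of -0.18 (adjusted p = 0.77). gap43, the other neuron marker, had -0.44 (adjusted p = 0.071). Of the 62 genes 6 had a positive difference, against 3400 of all 7280 genes. Of 78 regulators of retinal and neural progenitors 2 fell, neurod1 (-0.71 ± 0.14) and zic2a (-0.59 ± 0.13), both lost without any single day 3 pool. In the intestine list 3 of 31 fell: chia.2, a chitinase, fabp2, the enterocyte fatty acid binding protein (2017 and 1285 in mutants, 3910 and 3394 in siblings; -1.15 ± 0.27), and vil1, a protein of the brush border (-1.06 ± 0.21). chia.2 had 10 and 25.3 in mutants, against 179 and 139 in siblings, all below the filter limit, so it entered the test through its day 5 signals and its size is uncertain. None of these 3 calls was left without sibling replicate 1, sibling replicate 2 or mutant replicate 2 of day 3. Of 59 liver and plasma protein genes 2 fell, apoda.2 (797 and 805 in mutants, 3506 and 3053 in siblings; -1.95 ± 0.40) and uox, the uricase (-0.83 ± 0.18). Both were lost without any 1 of the day 3 pools, and the list's median was 0.09. Skeletal muscle had 1 rise, casq2, a calcium store protein (0.69 ± 0.15), and 3 falls, mybpha, tpm1 and pkma, between -0.93 and -0.63, among 65 genes. A single rise among 65 genes is near the share over all genes. Of the 3 falls 1 was left without sibling replicate 1 or mutant replicate 2 of day 3, and 0 without sibling replicate 2.

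The stress and interferon list had 1 rise and 1 fall among 65 genes, with a median of -0.02. Both counts are near the shares over all genes (1.44% higher and 0.92% lower). The rise was isg15, an interferon-induced ubiquitin-like protein gene (425 and 348 in mutants, 136 and 159 in siblings; 1.09 ± 0.25, adjusted p = 0.046). Its sibling signals lie below the filter limit, so the size is uncertain, and the call was lost without any 1 of the day 3 pools. The fall was klf9, described with the day 5 values. bmb, ecd, nme2a and plac8.1, all among the 15 largest rises or falls, are on none of the lists. bmb, which in zebrafish acts in the fusion of nuclear envelopes in early embryos, had 1074 and 1205 in mutants, against 136 and 267 in siblings (2.22 ± 0.34). The sibling mean of bmb lies below the filter limit, so its size is uncertain, and it lost the call without 2 of the 4 day 3 pools. ecd, a gene whose fruit fly orthologue acts in splicing and ecdysone synthesis, had 1903 and 1434 in mutants, against 373 and 406 in siblings (1.92 ± 0.18, adjusted p = 1.6e-04). nme2a, a nucleoside diphosphate kinase gene, had 849 and 678 in mutants, against 2449 and 2394 in siblings (-1.59 ± 0.29). plac8.1 had 605 and 305 in mutants, against 1575 and 1203 in siblings (-1.54 ± 0.29), and here the 2 mutant pools stood well apart. nme2a and plac8.1 each kept the call without 1 of the 4 day 3 pools only.

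Lists with 0 calls on day 3 by limma were DNA replication (56 genes, median 0.01), mitosis (49, -0.02), ribosomal proteins (73, -0.01), nucleolus (85, 0.09), oxidative phosphorylation (75, 0.10), proteasome (41, 0.09), skin (56, 0.03), pigment cells (19, 0.09), erythroid cells (18, 0.12), heart (14, -0.14), lens (5, -0.02), myeloid cells (26, -0.11) and lymphoid cells (9, -0.27). pcna, the replication clamp, had 21268 and 20115 in mutants, against 18230 and 17215 in siblings (0.22, adjusted p = 0.32). The lens crystallin gene crybb1 had 54564 and 58730 in mutants, against 50190 and 49313 in siblings (0.19, adjusted p = 0.50). These values do not show that the lists were unchanged. On day 5, with 3 pools a group, the proteasome list had 19 rises and the nucleolus list 17. Other lists had few calls there too, such as ribosomal proteins (0 rises and 1 fall) and erythroid cells (1 rise and 0 falls). Calls on day 5 do not show what the day 3 comparison could detect. Cartilage had 1 call of 58, matn1, and a median of 0.02, with col2a1a at 44913 and 40477 in mutants, against 45314 and 42972 in siblings (-0.05). Heat shock and unfolded protein response had 1 of 50, hspa4b (0.67 ± 0.14), which was lost without any 1 of the day 3 pools. These single calls are near the shares over all genes (1.44% higher and 0.92% lower).

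**Figure D3:**
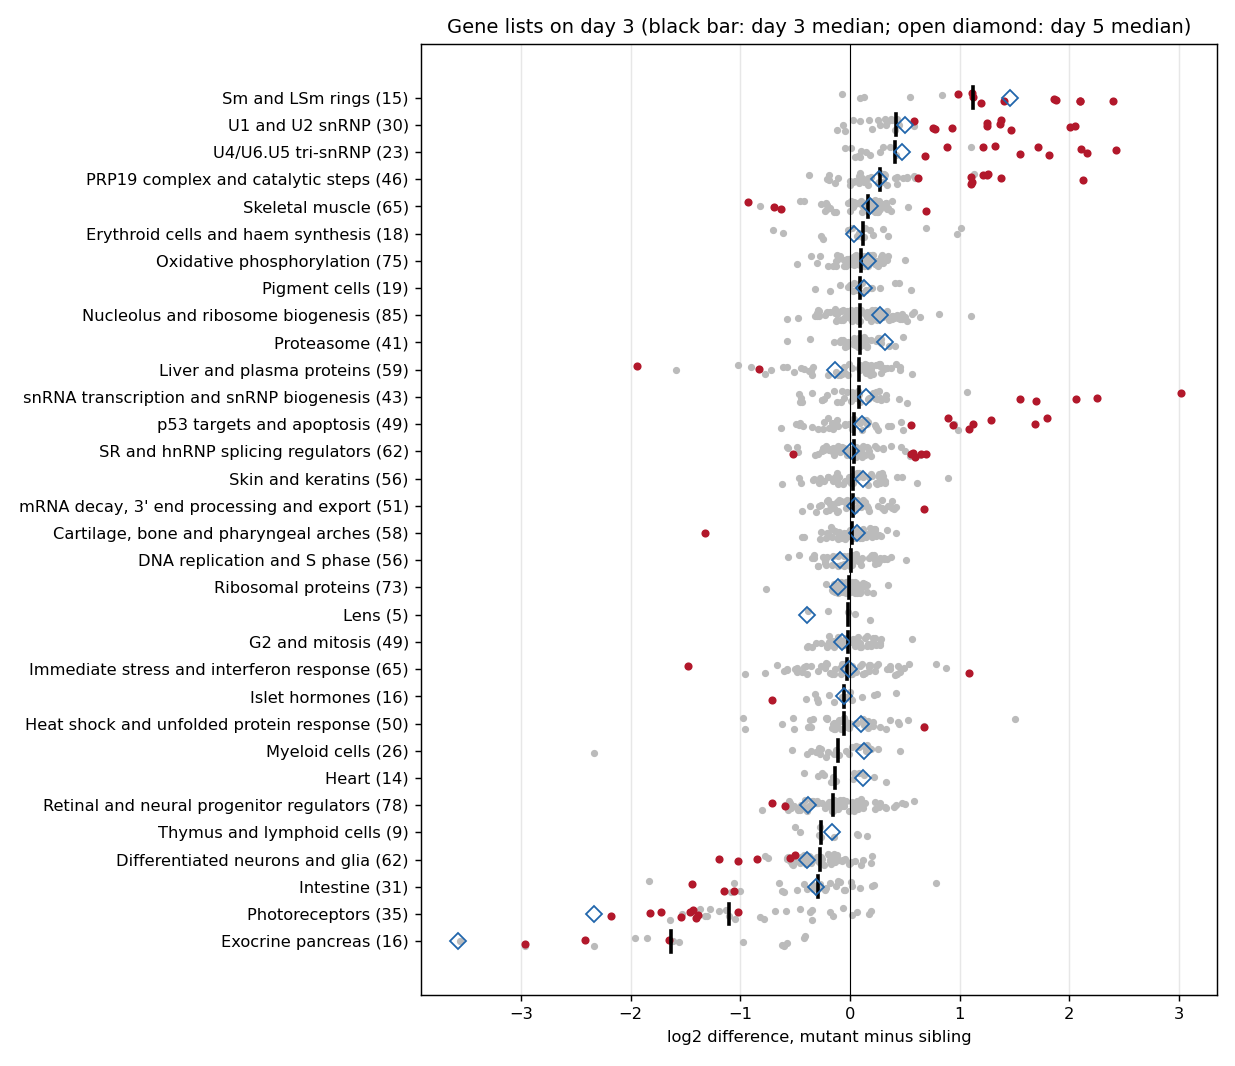
Log2 difference on day 3, mutant minus sibling, for every tested gene of the 32 lists (number of genes in brackets), with the day 3 median as a black bar and the day 5 median as an open diamond; red points passed the adjusted p threshold on day 3. The Sm and LSm rings stand highest with medians of 1.12 on day 3 and 1.46 on day 5, and exocrine pancreas lowest with -1.63 and -3.58.

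To see which differences were already at their later size, the day 3 difference of each call was set against its day 5 difference. A difference was called full size if it had the same sign on both days and on day 3 reached at least 80% of the day 5 log2 difference. The direct test of day 5 against day 3 differences passed for 0 probe sets (771 at an unadjusted p under 0.05), so no gene is shown here to differ between days. Leaving out 1 day 5 mutant pool gave 50 calls for replicate 3 and 1 call each for replicates 1 and 2. All 238 day 3 calls had the same sign on day 5, and 129 of the 137 higher and 90 of the 101 lower ones were called there too. Full size was reached by 106 of the 137 higher (77.4%) and 57 of the 101 lower probe sets (56.4%). The rule has no upper limit. The counts include 9 higher and 10 lower probe sets whose day 5 difference was under 50% of the day 3 size. Over all 137 and 101 the day 3 difference was in the median 96.7% and 87.3% of that on day 5. Probe sets picked for a call on day 3 have large day 3 differences by that choice. Among those called on day 5, 209 of 752 higher (27.8%) and 194 of 938 lower ones (20.7%) were full size on day 3. The shares depend on 1 day 5 pool. For 186 of the 238 calls, mutant replicate 3 was the mutant pool of day 5 nearest to the day 5 siblings. In snrpd3 it had 4391, against 8140 and 8601 in the other day 5 mutant pools, and in sart3 809, against 105 and 132. With day 5 differences taken without it, a count chosen after the data were seen, full size was reached by 90 of the 137 higher (65.7%) and 50 of the 101 lower probe sets (49.5%). Leaving out any other day 5 pool gave 104 to 116 and 57 to 65. The calls of day 5 make up 6.47% (higher) and 8.07% (lower) of the probe sets tested.

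**Figure D4:**
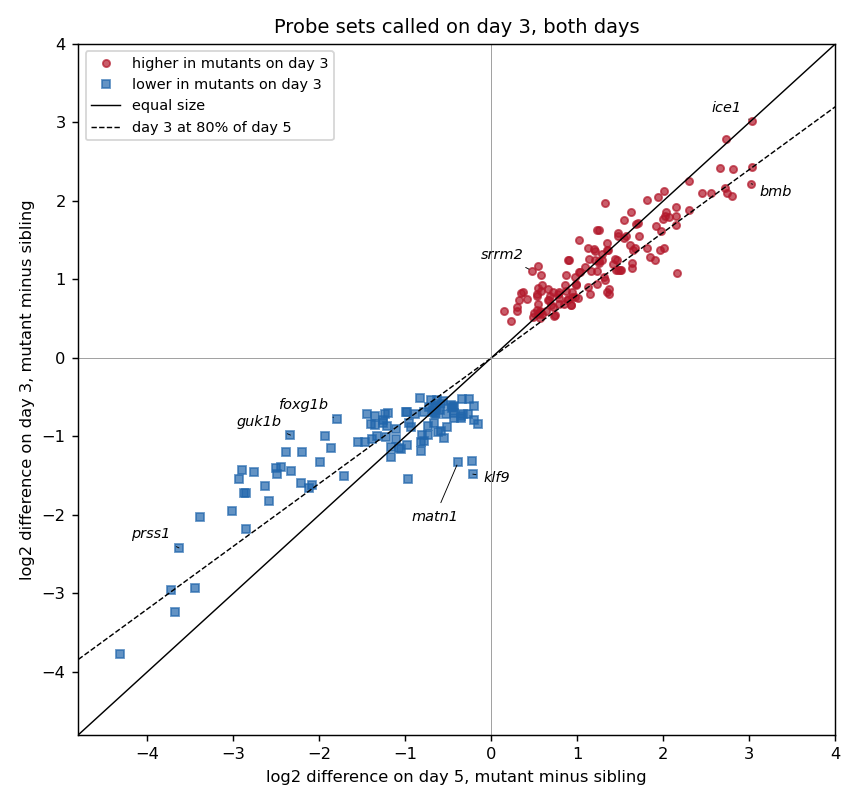
Day 3 against day 5 log2 difference, mutant minus sibling, for the 238 probe sets called on day 3; the solid line marks equal size and the dashed line a day 3 difference of 80% of that on day 5. Of the 137 higher in mutants 106 lie on the full-size side of the dashed line, and of the 101 lower 57 do.

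Of the 40 spliceosome genes called, 30 were of full size, with a median of 90.6% of the day 5 difference. Without mutant replicate 3 of day 5 there were 24, with a median of 81.9%, and without any other day 5 pool 29 to 35. ice1 is on the list of small nuclear RNA transcription and RNP biogenesis, so it is not among the 40. It differed by 3.02 on day 3 and 3.03 on day 5, with a mean of 2385 in mutants and 241 in siblings on day 5. The day 5 minus day 3 difference was 0.01, with a 95% interval of -0.96 to 0.99. sart1 had 1.71 on day 3 and 1.70 on day 5 (interval of the difference -0.54 to 0.52), and ddx23, a tri-snRNP helicase, 1.32 and 1.28 (-0.54 to 0.46). In frg1, a splicing-associated nuclear gene on the same list as ice1, the values were 2.25 and 2.3 (-0.56 to 0.65). The intervals are wide, so changes of up to about these sizes between the days were not detectable. dhx16, sde2 and phf5a, all spliceosome genes, were also within 0.04 of their day 5 difference. These genes, with ice1, sart1, ddx23 and frg1, were picked for the smallest change between the days among full-size genes. Their near-equal values restate that choice and do not show what is typical of the lists. Of the 10 Sm and LSm genes called, 5 were full size, and all 10 had a larger difference on day 5. For lsm8 the differences were 2.1 and 2.74, with an interval of the change of 0.17 to 1.12 (unadjusted p = 0.012, adjusted p over 0.05). The p53 targets called had 3 of 8 at full size, and mdm2 differed by 1.80 on day 3 and 2.06 on day 5. Its signal on day 5 averaged 7303 in mutants and 1710 in siblings.

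Falls of photoreceptor and exocrine pancreas genes were mostly not of full size by the 80% rule. The direct test between the days passed for none of them. Of the 9 photoreceptor genes called, 1 was full size, rbp4l, a retinol-binding protein (-1.03 on day 3, -1.11 on day 5), and all 9 had a larger difference on day 5. prph2b had -1.43 on day 3 and -2.90 on day 5 (change -1.47, interval -2.35 to -0.59, limma unadjusted p = 0.0032, adjusted p = 0.43). Its other probe set had -2.02 on day 3. In opn1mw1 the mutants averaged 3629 on day 3 and 7440 on day 5, against 16752 and 44594 in siblings. Its day 5 mutant pools were far apart, at 2451, 6605 and 13263. gngt2a had lower levels on day 5 in both groups, with a mean of 538 on day 3 and 167 on day 5 in mutants, against 2006 and 1268 in siblings. Of the 3 exocrine genes 0 were full size, with 66.6% to 79.4% of the day 5 difference (median 77.8%). The called Sm and LSm genes had a median of 79.2%, so such counts depend on where the limit lies. prss1 averaged 921 on day 3 and 2305 on day 5 in mutants, against 5135 and 23492 in siblings. Its change between the days was -1.21 (interval -2.65 to 0.23). For fabp2 the mutant mean was 1651 on day 3 and 2867 on day 5, against 3652 and 10509 in siblings. Full size or beyond were gad1b, which makes the transmitter GABA (-0.55 and -0.56), zic2a (-0.59 and -0.58) and ptgdsb.2, a prostaglandin synthase gene of the lipocalin kind (923 and 712 in mutants, 1825 and 1890 in siblings; -1.13 and -1.17). These 3 lost the call without at least 3 of the 4 day 3 pools. ptgdsb.2 was also picked for its small change between the days. Also past 80% were vil1 (135% of the day 5 difference), pvalb6 (189%) and the 3 skeletal muscle falls, mybpha (160%), tpm1 (107%) and pkma (87.0%).

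**Figure D5:**
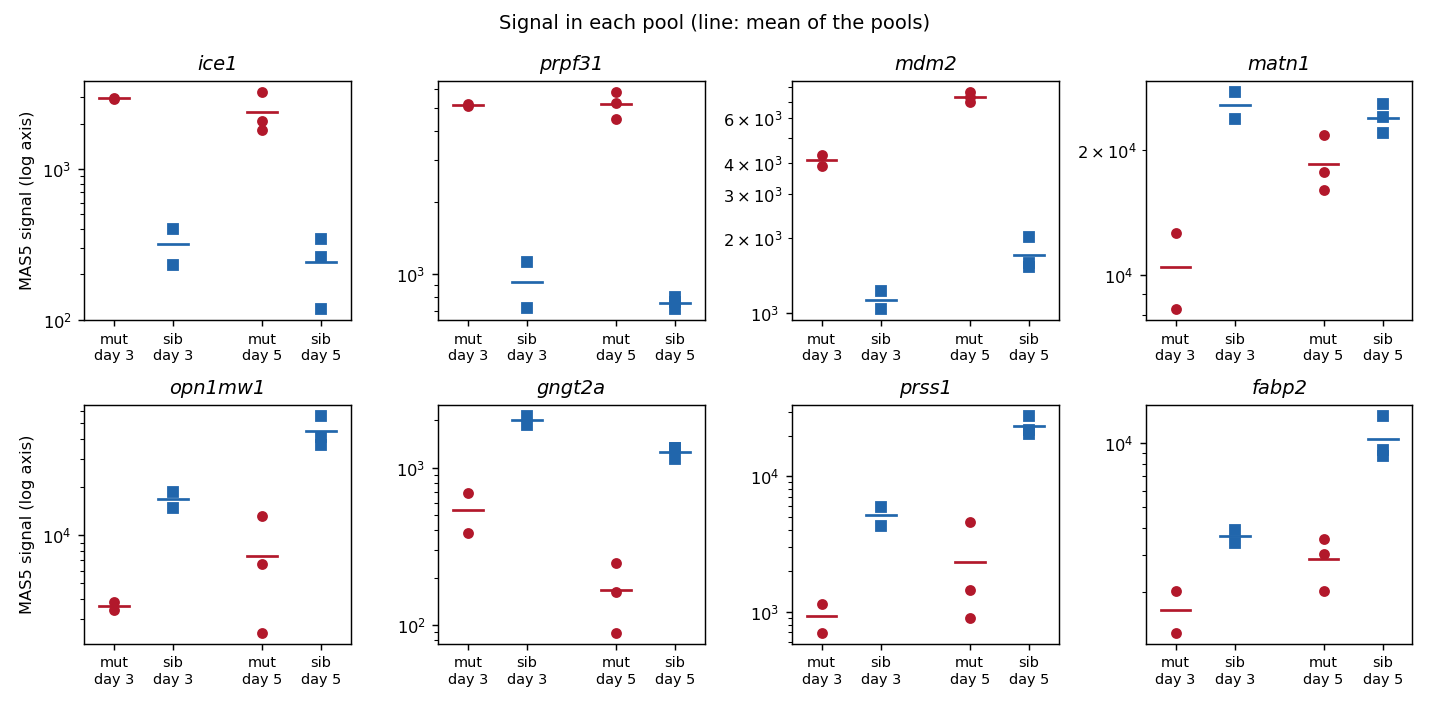
MAS5 signal (log axis) in each pool on day 3 (2 mutant, 2 sibling) and day 5 (3 mutant, 3 sibling) for 8 genes, with lines at the group means. The mutant points of ice1, prpf31 and mdm2 lie above all sibling points on both days, those of opn1mw1, gngt2a, prss1 and fabp2 lie below the sibling points of their day, and the gap for matn1 is wider on day 3 (-1.32) than on day 5 (-0.38).

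Some day 3 differences had a smaller estimate on day 5. For 9 probe sets higher and 10 lower the day 5 difference was under 50% of the day 3 size. The genes named here were picked for that, so their changes between the days restate the choice. The direct test between the days passed for 0 probe sets. matn1, a cartilage matrix protein gene, had 12659 and 8275 in mutants, against 27687 and 23823 in siblings (-1.32 ± 0.18, adjusted p = 0.0024). On day 5 it averaged 18517 in mutants and 24005 in siblings (-0.38, adjusted p = 0.11). The change between the days was 0.94 (0.42 to 1.46, limma unadjusted p = 0.0018, adjusted p = 0.37). The day 3 call was kept without 3 of the 4 day 3 pools, and lost without sibling replicate 1. klf9, a transcription factor that responds to glucocorticoids, had 1295 and 655 in mutants, against 2159 and 3358 in siblings (-1.48 ± 0.34), and -0.21 on day 5. The 2 pools of each group differed from each other more for klf9 than for matn1. gabrb2a, a GABA receptor subunit gene, and slc6a17, a vesicular transporter gene of neurons, had -0.84 and -0.79 on day 3 and -0.16 and -0.20 on day 5. The day 3 call was kept without 1 of the 4 day 3 pools for klf9 and slc6a17, and without none of them for gabrb2a. srrm2, a splicing scaffold protein gene, had 2817 and 2871 in mutants, against 1337 and 1232 in siblings (1.11 ± 0.18, adjusted p = 0.0069), with 0.48 on day 5. rbm39a and srsf6b, both splicing regulators, had 0.64 and 0.60 on day 3 and 0.30 and 0.29 on day 5. srrm2 and rbm39a each kept the day 3 call without 1 of the 4 day 3 pools only, and srsf6b lost it without any 1 of them.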

How the data were processed

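RNA of 10 pools was hybridised to Affymetrix zebrafish arrays. The deposited values are linear signal intensities made with MAS5, per the submitters' processing notes; no source used here gives its version, scaling target or detection calls. The highest 2% trimmed mean of an array was 1.000043 times the lowest, so the authors had scaled the arrays alike, and each difference is therefore relative to the array's other signals. Of 15617 probe sets 115 controls were left out. Platform annotation of 2016 gave 1 symbol to 10795, several to 135 and none to 4572. A gene is shown by its brightest probe set over all arrays.

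Signals were analysed as log2(signal + 64.78), 10% of the median, which understates changes of low probe sets. The lowest 25% (3876, limit 223) were left out. limma 3.58.1 (R 4.3.3) fitted 4 group means to all 10 arrays, with a mean-variance trend and Benjamini-Hochberg adjustment over 11626 probe sets. Errors are standard errors; the number of arrays limits the precision, and p-values measure the spread between pools. On simulated data with day 3 group sizes, 76% of probe sets changed by 1 (log2) and 99% of those changed by 2 were called, beside 8 false calls. That simulation gave every group the same spread and drew probe sets independently. In the data the spread was unequal, with array weights from 0.60 to 1.90, so the shares may not hold there. Same-numbered pools deviated together on day 5 (r 0.22 to 0.27 in the 3 pairs), which the main fit does not use. On day 3 r was -0.048 for same-numbered pools. With 2 pools a group this is in effect 1 value, so it does not settle whether the day 3 numbers pair the pools.

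The comparison, the 32 gene lists and the rules for named genes (the 15 largest rises and falls, 10 full-size genes, the 8 and 8 largest with a day 5 difference under 50%, and up to 4 list members per direction) were chosen with earlier results of these data known. The 15 largest rises and falls were taken among calls whose day 3 mutant and sibling pools do not overlap. Of 2301 list entries 1524 were on the array, 52 of them by an older symbol, and 3 wrong matches were dropped after the lists were written. No genome build is stated, so no coordinates are given. Alternatives were other pseudocounts, filters, scalings and variance models, the replicate number as a block, the day 3 pools alone, each pool left out, and the conflicting label.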

Additional observations from a re-analysis of the deposited data

How the results depend on the processing

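All 238 day 3 calls kept their direction under every alternative in which they were tested. For most alternatives this was fixed in advance, because the mutant and sibling pools of these calls do not overlap. Only another scaling or the conflicting label could have reversed a direction. Medians near 0 did change sign: with a pool left out or another setting, 13 of the 32 lists had a median of the other sign, among them heart (up to 0.02), DNA replication (down to -0.05) and SR and hnRNP genes (down to -0.03). col2a1a, which did not pass, kept its sign in 19 of 21 alternatives. The day 3 count was 505 with array weights (234 higher and 271 lower), 0 with sibling replicate 2 counted as a mutant, and between 48 and 400 when a pool was left out; the other alternatives gave 178 to 344. With the replicate number as a block it was 344, although the day 3 numbers are not shown to pair the pools (r -0.048). The day 5 count was 1854 with that block and between 1045 and 2032 when a pool was left out. The direct test between the days gave 8 calls with a pseudocount of 50% of the median, 6 with array weights and 10 with the block, and 0 to 50 when a pool was left out. sart3 on day 3 was called with the larger pseudocount (-1.70), and at -2.08 with array weights, with the block and with the day 3 pools alone. Leaving out a pool gave -2.29 to -1.86, and 2 of these 10 fits, each without a day 5 pool, called it. In total 6 of 21 alternatives called sart3. The cause of these shifts was not tested. Fewer samples enter when a pool is left out, and the day 3 count then moved both below and above 238. Of the values of named genes other than sart3 under the alternatives, 1960 kept their side of the threshold, 396 lost it, 1 gained it and 27, of genes that had not passed, changed sign. Probe sets near background have uncertain sizes.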

Other observations

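2 groups of genes were put together after their day 3 values were seen, so they are given as values only. The shares over all genes were 1.44% higher and 0.92% lower. Of 8 RNA polymerase II subunit genes tested, 3 were called higher and 1 lower. polr2eb had 8429 and 7737 in mutants, against 2103 and 2566 in siblings (log2 difference 1.77 ± 0.19, limma adjusted p = 3.7e-04), and polr2l had 7150 and 6565 in mutants, against 2410 and 2045 in siblings (1.6 ± 0.17). polr2g differed by 0.78 ± 0.15. polr2a, the largest subunit, was lower in both mutant pools (3645 and 3081, against 6062 and 6220 in siblings; -0.86 ± 0.17). polr2c, polr2f, polr2i and polr2j lay between 0.14 and 0.30 and did not pass. Of 7 genes that smooth muscle expresses, 4 fell and 0 rose, with a median of -0.70; 1 of the 4, tpm1, is already counted with skeletal muscle. acta2, smooth muscle actin, had 2903 and 2871 in mutants, against 6395 and 5214 in siblings (-0.98 ± 0.14, adjusted p = 0.0031), and tagln and smtnb differed by -0.76 and -0.70. The 3 that did not pass were mylka (-0.49, adjusted p = 0.12), myl9b (439 and 510 in mutants, 293 and 450 in siblings; 0.33) and desma, desmin, which striated muscle also expresses (0.33, adjusted p = 0.29).

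foxg1b, a transcription factor of the forebrain, had 1688 and 1722 in mutants on day 3, against 3016 and 2905 in siblings (-0.77 ± 0.12, adjusted p = 0.0048). On day 5 it averaged 840 in mutants and 3080 in siblings. Its change between the days was -1.02 (limma adjusted p = 0.077). The lowest adjusted p of that test, 0.073, belonged to crx and clu. crx differed by -0.37 on day 3 and -2.12 on day 5, and clu, a secreted chaperone, by 0.23 and 1.94. For both genes the day 5 estimate was the larger in size, but the change did not pass the threshold. crx and clu were picked for the smallest p of that same test. Among the probe sets without a gene name, the one with the deepest fall had 630 and 408 in mutants, against 9187 and 6507 in siblings (-3.77 ± 0.72), and the one with the steepest rise had 21720 and 21278 in mutants, against 2323 and 4027 in siblings (2.79 ± 0.22).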
